A study of Bos indicus x Bos taurus with 78 samples.

Results

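A set of 3 rows of the bovine miRNA count matrix is described here: bta-miR-1, bta-miR-133a and bta-miR-133c, written from here on without the bovine prefix. They were taken by name from the 1030 rows of the matrix, of which 741 held at least 1 count. Of the 3 rows, 2 held counts (miR-1 and miR-133a) and miR-133c held none. Small RNA was sequenced from biopsies of the Longissimus lumborum, the loin muscle, of 78 steers labelled Bos indicus x Bos taurus, all male and with no age or treatment given. Of these, 53 were labelled normal and 25 dark-cutting, the name for beef that stays dark after slaughter. Each dark-cutting steer carried a fraction as its degree: 1/4 in 8 steers, 1/3 in 9, 1/2 in 3, 2/3 in 4 and 3/4 in 1. The labels do not say of what the fraction is a part. Each steer gave 1 library, so every n is a number of animals.

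The miRNAs called myomiRs are made mainly in striated muscle. miR-1 and miR-133a are cut from shared primary transcripts, and miR-206 and miR-133b form another such pair. miR-1 and miR-206 share a seed, the short stretch near the 5′ end through which a miRNA pairs with its targets, and miR-133a and miR-133b differ only at their 3′ end. In developing muscle, miR-1 is known for promoting differentiation and miR-133a for promoting myoblast proliferation. miR-499 and miR-208b are carried in introns of slow myosin heavy chain genes and are known as part of the slow-fibre programme. Dark-cutting beef is known to come from muscle with little glycogen left at slaughter, whose pH then stays high.

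Libraries held 1427817 to 4535675 counts on miRNAs, with a median of 3209320. Because miR-1 took most of them, the counts left for all other miRNAs were 212155 to 765501, with a median of 499960. Markers of other cell types were present in every group: all members of the lists for red blood cells, white blood cells, endothelium, smooth muscle and fibroblasts were detected. In bulk tissue, fewer cells of a type and less of a miRNA per cell cannot be told apart.

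miR-1 was the most abundant miRNA in 78 of 78 steers and made up 84.1% ± 2.76 (SD, n = 78) of the counts. Its share ran from 72.3% in normal replicate 20 to 88.6% in normal replicate 23. The steer at 72.3% stood below all others, and in it the next rows were larger: miR-143, a miRNA best known from smooth muscle, took 3.46%, and miR-26a took 2.61% against a median of 0.960% over all steers. In the steer at 88.6%, miR-143 took 1.59% and miR-26a 0.933%. miR-133a made up 1.91% ± 0.607 (SD, n = 78) of the counts, from 1.01% in normal replicate 18 to 3.13% in a dark-cutting steer of degree 1/4. It held rank 2 in 21 steers, rank 3 in 54 and rank 4 in 3, and miR-143 exceeded it in 57 of 78 steers, 39 of 53 normal and 18 of 25 dark-cutting. Together miR-1 and miR-133a took 86.0% ± 2.40 (SD, n = 78) of the counts. After miR-1, miR-143 and miR-133a, no row had a mean share above the 1.07% of miR-22-3p. The rest of the 10 most abundant rows were miR-26a, miR-30e-5p, let-7f, miR-499, miR-126-3p and miR-30a-5p, with mean shares from 1.04% down to 0.466%.

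Since miR-1 fills most of a library, a share of miR-133a can also move when miR-1 alone changes. Among the counts other than miR-1, miR-133a took 11.9% ± 2.74 (SD, n = 78), from 6.85% to 17.7%. Within their seed families both members were by far the larger part. miR-1 was 99.6% ± 0.104 of the sum of miR-1 and miR-206, and miR-133a was 98.6% ± 0.309 of the miR-133 sum (SD, n = 78). miR-1 and miR-206 were read at 274 ± 76.9 to 1, and miR-133a and miR-133b at 71.7 ± 12.95 to 1 (SD, n = 78). Adapter ligation captures some miRNAs better than others, so these are ratios of reads and not of molecules. Reads that do not reach the 3′ end, where miR-133a and miR-133b differ, cannot be told apart between them, and the rule that assigned such reads is not known here.

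The row of miR-133c, a bovine miR-133 family member, held 0 counts in each of the 78 libraries. Over their 252310792 counts, a count of 0 allows a share of up to 1.19e-06%, or 0.0119 CPM (counts scaled to a common library size). In single libraries it allows up to 6.61e-05% in the deepest and 0.00021% in the shallowest. These limits cover counting error only, and it is not known here to which row reads matching both miR-133a and miR-133c were given.

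**Figure D1:**
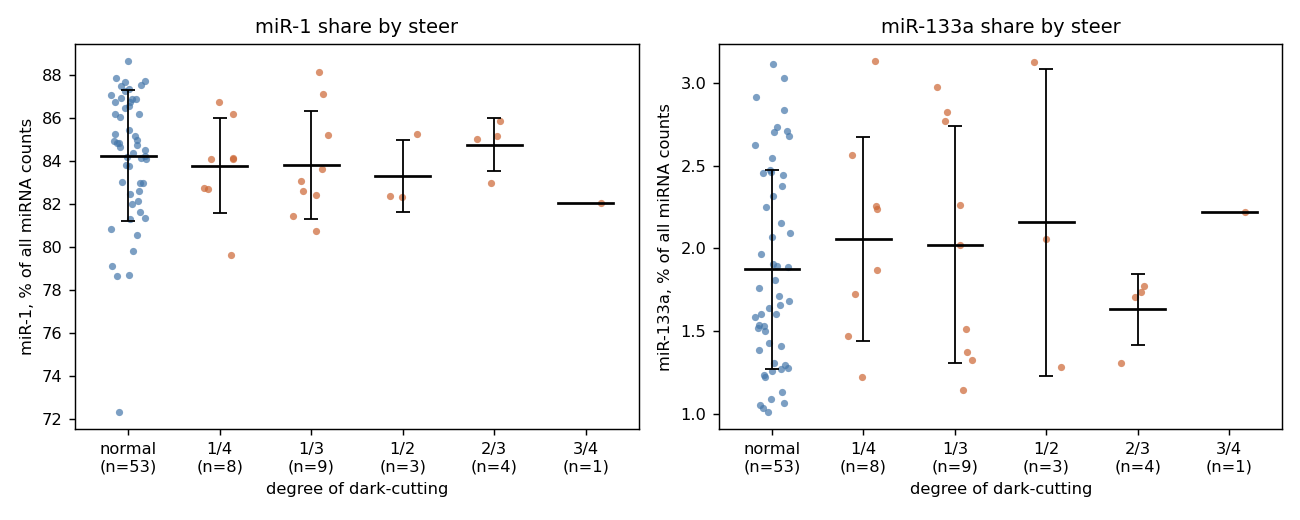
Share of all miRNA counts taken by miR-1 (left) and miR-133a (right) in each of the 78 steers, by degree of dark-cutting. Points are steers, lines are group means and bars are SD (none for the single steer of degree 3/4). The axes do not start at 0. All 25 dark-cutting steers lie within the range of the normal steers for miR-1, and 23 of 25 do for miR-133a.

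The amounts of the transcript partners varied between steers in a ratio that does not depend on library scaling. There were 48.9 ± 16.6 reads of miR-1 per read of miR-133a (SD, n = 78), from 25.3 in normal replicate 38 to 86.4 in normal replicate 18. Both extremes were normal steers. On the log2 scale the ratio was 5.53 ± 0.50 (SD, n = 78). The log2 ratio of miR-133a to miR-133b, which are not made from the same transcript, had an SD of 0.28.

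No correlation between the levels of miR-1 and miR-133a passed the test across steers. On TMM-scaled log2 CPM (TMM scales each library by the bulk of its miRNAs, so that 1 dominant miRNA does not set the scale), Pearson's r was -0.061 (permutation p = 0.596, adjusted p = 0.808) and Spearman's rho was -0.146 (permutation p = 0.203, adjusted p = 0.338; n = 78). Adjustment was over 15 relations. Without the 2 steers farthest from the median of miR-1, r was -0.210. Relative to counts other than miR-1, miR-133a and miR-133c, r was -0.112 and rho -0.218 (adjusted permutation p = 0.414 and 0.118). The title numbers of the animals fall in 2 blocks, below 600 and from 600, whose meaning the labels do not give. In the 26 steers below 600, r was -0.365 and rho -0.365 (adjusted permutation p = 0.232 and 0.206). In the 52 steers from 600, r was 0.064 and rho -0.030, so the sign of r was not the same in both blocks.

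A further 3 pairs were examined after their values had been seen, with adjustment over the 4 pairs. miR-133a rose and fell with miR-133b: r was 0.653 and rho 0.695 (permutation p = 1e-05 for both, the smallest that 100000 permutations can give; adjusted p = 4e-05). Without the 2 steers farthest from the median of miR-133a, r was 0.633; it was 0.844 below 600 and 0.570 from 600. The other transcript pair, miR-206 and miR-133b, had r = 0.198 and rho = 0.173 (adjusted permutation p = 0.162 and 0.257). Relative to counts other than miR-1, miR-133a and miR-133c, r of this pair was 0.332 over all steers, 0.586 below 600 and 0.234 from 600. The seed pair miR-1 and miR-206 had r = 0.104 and rho = 0.005 (adjusted permutation p = 0.482 and 0.966). For this last pair the sign of r turned to -0.053 without the 2 farthest steers. Since some reads of miR-133a and miR-133b cannot be told apart, their levels may not be independent measurements, and this was not tested.

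Likeness over the 78 steers was ranked for miR-1 and for miR-133a among 250 other miRNAs that passed the low-count filter. The highest Spearman's rho with miR-1 were those of let-7a-3p (0.728), let-7f (0.715), miR-7 (0.711), let-7g (0.707) and miR-30e-5p (0.682), and the lowest were those of miR-497 (-0.582), miR-23a (-0.502) and miR-107 (-0.500). Of the 250, 189 had a higher rho with miR-1 than miR-133a did. With miR-133a, the highest rho were those of miR-133b (0.695), miR-6119-5p (0.623), miR-29c (0.594), let-7e (0.591) and miR-196a (0.586). The lowest were those of miR-199a-5p (-0.600), miR-2284a (-0.536) and miR-11977 (-0.530), the last 2 at under 0.001% of counts. These values are a description, and all of them share the libraries and their scaling. Relative to counts other than the members, each of the 16 kept its sign, with rho from 0.581 to 0.689 and from -0.702 to -0.378 for miR-1, and from 0.590 to 0.680 and from -0.489 to -0.450 for miR-133a.

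miR-133a was lower in steers where a list of fibroblast miRNAs was higher. The list holds miR-21-5p, miR-199a-3p, miR-199a-5p, miR-199b and miR-214, which are high in connective tissue cells, and miR-21-5p gave 79% of its counts. The list summed to a median of 0.369% of counts in normal steers (0.279% to 1.15%) and 0.419% in dark-cutting steers (0.233% to 0.531%). On the TMM scale the order was the other way. There its mean level was 11.97 ± 0.26 log2 CPM in normal and 11.89 ± 0.21 in dark-cutting steers (SD, n = 53 and 25). Against miR-133a its summed level had r = -0.540 and rho = -0.523 (permutation p = 1e-05 for both, the smallest that can be given; adjusted p = 0.00015; n = 78). Without the 2 steers farthest from the median of miR-133a, r was -0.509. It was -0.676 in the 26 steers below 600 (adjusted permutation p = 0.0027) and -0.505 in the 52 from 600 (adjusted permutation p = 0.0018). Relative to counts other than the members, r was -0.375 (adjusted permutation p = 0.00915). Each of the 5 miRNAs had a negative rho with miR-133a, from -0.600 for miR-199a-5p to -0.439 for miR-21-5p. Relative to counts other than the members, these were weaker, from -0.474 for miR-199a-5p to -0.259 for miR-199b. For miR-1, r with the list was 0.212 and rho 0.287 (adjusted permutation p = 0.187 and 0.0556). This r was 0.352 without the 2 farthest steers and 0.081 relative to counts other than the members. It was 0.581 below 600 (adjusted permutation p = 0.0148), where rho was 0.508 (adjusted permutation p = 0.0665), and 0.108 from 600 (adjusted permutation p = 0.667). Among the 5 miRNAs its rho ran from -0.354 for miR-214 to 0.379 for miR-21-5p. The part of cell makeup in these relations was not tested.

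**Figure D2:**
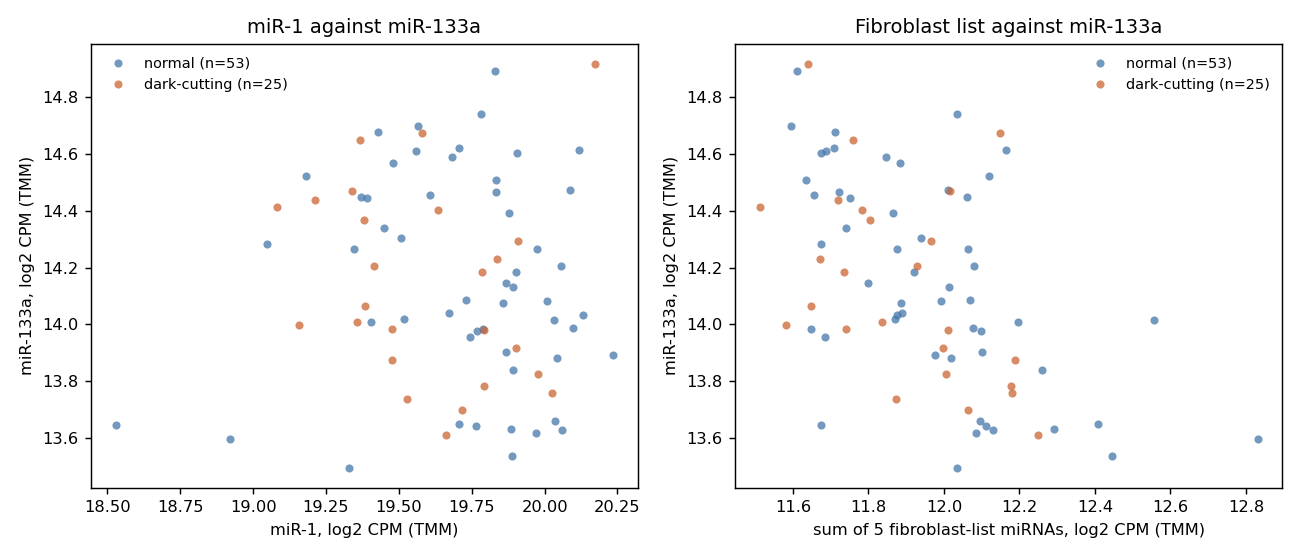
Level of miR-133a (vertical axes, TMM-scaled log2 CPM) against the level of miR-1 (left) and against the summed level of the 5 fibroblast-list miRNAs (right), with 1 point per steer, coloured by phenotype. In the left panel r is -0.061; in the right panel miR-133a is lower where the list is higher (r = -0.540).

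Of the other lists, the remaining skeletal muscle miRNAs (miR-133b, miR-206, miR-208b and miR-499) had r = 0.313 with miR-1 (adjusted permutation p = 0.0404; rho = 0.230, adjusted permutation p = 0.130), which was 0.219 without the 2 farthest steers. The 4 miRNAs of this list differed in sign: rho with miR-1 was 0.272 for miR-499, which gave 59.8% of the list's counts, 0.005 for miR-206, -0.158 for miR-208b and -0.190 for miR-133b. That list summed to a median of 0.845% of counts in normal steers (0.501% to 1.45%) and 0.934% in dark-cutting steers (0.625% to 1.343%). On the TMM scale its mean level was 13.105 ± 0.271 log2 CPM in normal and 13.098 ± 0.273 in dark-cutting steers (SD, n = 53 and 25). Smooth muscle miRNAs, at a median of 2.51% (1.28% to 6.36%) and 2.23% (1.43% to 4.73%), had r = 0.291 with miR-1 (adjusted permutation p = 0.0492; rho = 0.294, adjusted permutation p = 0.0556). Without normal replicate 19, r was 0.285 and no longer passed (adjusted permutation p = 0.0575). Relative to counts other than the members, r was 0.124 with the skeletal muscle list and -0.159 with the smooth muscle list, so that of smooth muscle turned in sign with the scaling. Neither passed within a block of title numbers. The other 12 relations, of the members with the total count and with the red blood cell, white blood cell and endothelium lists, of miR-133a with smooth muscle and skeletal muscle, of miR-1 with fibroblasts and of the members with each other, had adjusted permutation p from 0.081 to 0.998 for Pearson's r. Of these, miR-1 with endothelium had r = -0.273 and rho = -0.359 relative to counts other than the members (adjusted permutation p = 0.0804 and 0.0109), and the rho passed on that scale. There miR-133a with smooth muscle had r = -0.348 and rho = -0.265 (adjusted permutation p = 0.0137 and 0.0983), and the r passed.

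The question of the study was which miRNAs differ with dark-cutting, and for miR-1 and miR-133a the phenotypes overlapped throughout. The level of miR-1 was 19.72 ± 0.33 log2 CPM in normal steers (SD, n = 53). edgeR's quasi-likelihood test, fitted over 252 miRNAs, gave a log2 fold change for dark-cutting against normal of -0.13 ± 0.08 (SE; 95% interval -0.28 to 0.02; p = 0.0915, adjusted p = 0.436). All 25 dark-cutting steers lay within the normal range of miR-1, 8 of them above the normal median. For miR-133a the log2 fold change was -0.02 ± 0.09 (SE; 95% interval -0.19 to 0.15; adjusted p = 0.937 in edgeR), and 24 of 25 dark-cutting steers lay within the normal range, 12 above its median and 1 above its highest steer. Neither member passed at an adjusted p of 0.05, and neither did any of the 252 miRNAs tested (0%); at an unadjusted p of 0.05, 23 of 252 (9.13%) passed, without the members. Counting each library's total instead of TMM moved the median log2 fold change of all miRNAs from -0.01 to 0.10; miR-133a then stood at 0.09, so that its sign turned with the scaling. miR-1 stood at -0.27 ± 0.12 (SE) below 600 and -0.05 ± 0.09 (SE) from 600, with adjusted p = 0.852 for the difference between the blocks in edgeR.

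No share of counts and no ratio taken within a library passed a test either. A share depends on the counts it is taken from, and only the ratio of the 2 members is free of that scaling. The miR-1 share averaged 84.2% in normal and 83.8% in dark-cutting steers (permutation p = 0.549), and the miR-133a share 1.87% and 2.00% (permutation p = 0.407). In counts other than miR-1, miR-133a took 11.8% and 12.2% (permutation p = 0.545). The log2 ratio of miR-1 to miR-133a was 5.56 ± 0.50 in normal and 5.46 ± 0.48 in dark-cutting steers (SD, n = 53 and 25), a dark-cutting minus normal difference of -0.10 ± 0.12 (SE; two-sided permutation p = 0.385). It was -0.30 ± 0.24 below 600 (exact permutation p = 0.191) and -0.01 ± 0.13 from 600 (permutation p = 0.921). Over the 5 tests of this kind, including the one on degree given below, every adjusted p was 0.584.

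**Figure D3:**
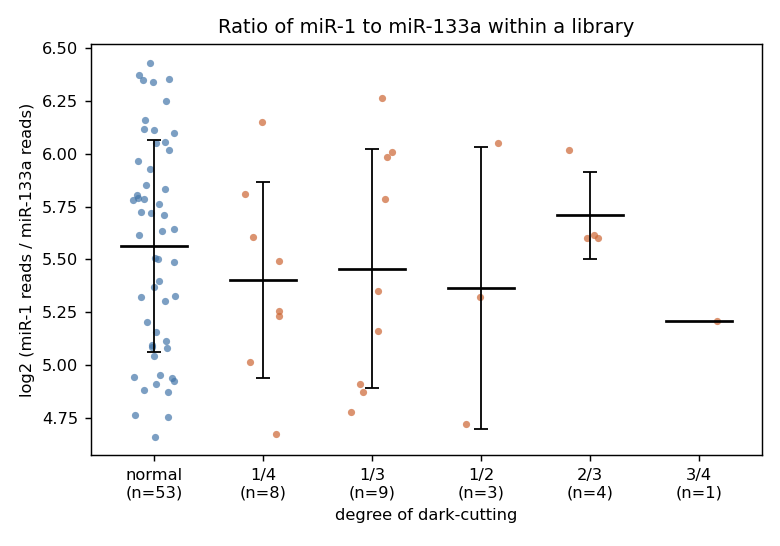
Log2 ratio of miR-1 reads to miR-133a reads within each library (vertical axis) for the 78 steers, by degree of dark-cutting. Points are steers, lines are group means and bars are SD. The axis does not start at 0. All 25 dark-cutting steers lie within the range of the normal steers.

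By degree, the shares of both members overlapped with those of normal steers. Normal steers had miR-1 shares with a lowest, median and highest value of 72.3%, 84.7% and 88.6%. For degree 1/4 these were 79.6%, 84.1% and 86.7%, and for degree 1/3 they were 80.7%, 83.1% and 88.1%. The 3 steers of degree 1/2 had 82.3%, 82.3% and 85.2%, those of degree 2/3 had 83.0%, 85.1%, 85.0% and 85.8%, and the steer of degree 3/4 had 82.0%. No degree left the normal range. For miR-133a the lowest, median and highest shares were 1.01%, 1.71% and 3.11% in normal steers, 1.22%, 2.05% and 3.13% for degree 1/4, and 1.15%, 2.02% and 2.97% for degree 1/3. The 3 steers of degree 1/2 had 3.13%, 2.06% and 1.28%, which spans most of the range of the study. Those of degree 2/3 had 1.71%, 1.74%, 1.31% and 1.77%, and the steer of degree 3/4 had 2.22%. The 2 shares above the highest normal steer belonged to degree 1/4 and degree 1/2.

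In one edgeR fit of 272 miRNAs over the degrees with at least 3 steers, the log2 fold changes of miR-1 against normal were -0.06 ± 0.12 for degree 1/4, -0.17 ± 0.11 for 1/3, -0.23 ± 0.19 for 1/2 and -0.10 ± 0.16 for 2/3 (SE; adjusted p = 0.998, 0.729, 0.994 and 0.988). They were all below 0, and none exceeded its error enough to pass. The values share their normal steers and are not in the order of degree. For miR-133a they were 0.10 ± 0.14, -0.06 ± 0.13, 0.01 ± 0.21 and -0.24 ± 0.19 (SE). The members passed at no degree; of all 272 miRNAs, 0 (0%) passed at degrees 1/4, 1/3 and 1/2, and 1 (0.368%) at 2/3. That one was miR-1260b, named after its value was seen, and it did not pass without replicate 1 or without replicate 4 of degree 2/3. At an unadjusted p of 0.05, 1.10%, 9.19%, 4.78% and 2.57% passed, in order of degree. The value of miR-133a at degree 1/2 moved both ways with single steers. It ran from -0.29 to 0.22 with each of the 3 left out, and was -0.29 without replicate 1. At degree 2/3, miR-1 stood at 0.05 without replicate 1.

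Along the degree as a number, with normal steers at 0, the slope of miR-1 per unit of degree was -0.31 ± 0.17 (SE; 95% interval -0.64 to 0.02; p = 0.0656, adjusted p = 0.436 in edgeR) and that of miR-133a -0.15 ± 0.20 (SE; adjusted p = 0.814). Of 272 miRNAs, 1 (0.368%) passed, miR-1260b again, and 11% did so at an unadjusted p of 0.05, without the members. Within the 25 dark-cutting steers the slopes were -0.25 ± 0.35 and -0.58 ± 0.39 (SE; adjusted p = 0.998 for both in edgeR), and none of the 251 miRNAs passed (0%; 3.59% at an unadjusted p of 0.05). The log2 ratio of miR-1 to miR-133a had r = 0.115 with degree in these 25 steers (permutation p = 0.584) and rho = 0.10 (permutation p = 0.631), and r was 0.176 without the 2 farthest steers.

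**Figure D4:**
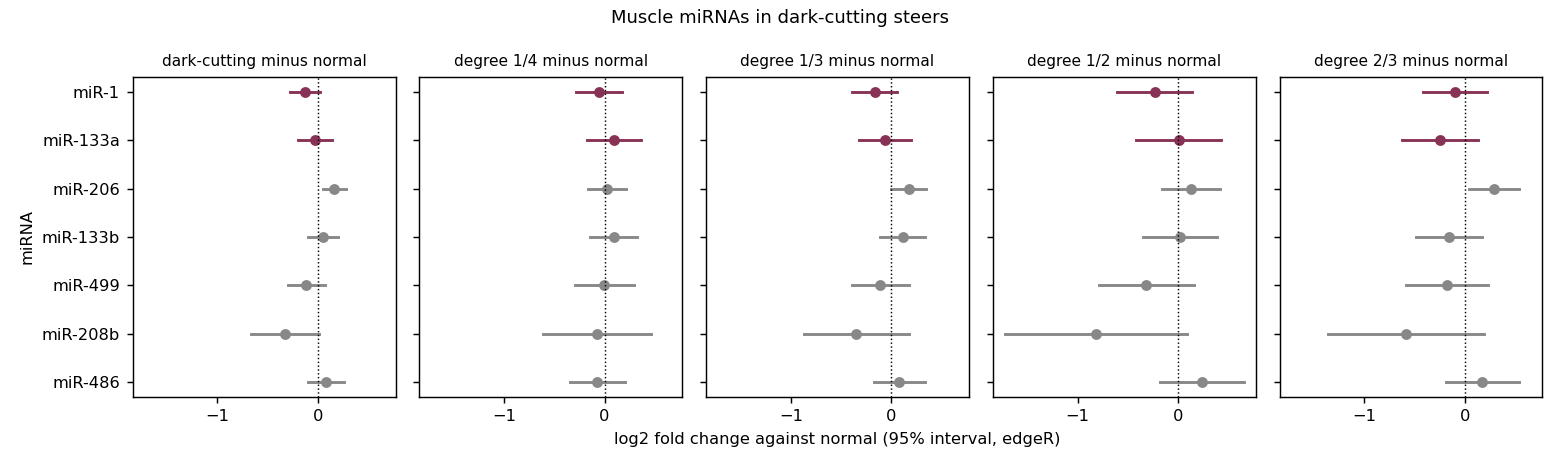
Log2 fold change against normal steers (horizontal axis) for miR-1 and miR-133a (dark red) and 5 other myomiRs (grey), for all dark-cutting steers and for each degree with at least 3 steers. Points are edgeR estimates and lines are 95% intervals before adjustment. The intervals of miR-1 and miR-133a include 0 in every panel.

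The other myomiRs were tested in the same fits. Of the 6 listed, 5 passed the low-count filter; miR-208a, the heart-enriched member, had at most 10 counts in a library and was seen in 60 of 78 steers. Mean shares were 0.538% for miR-499, 0.328% for miR-206, 0.0561% for miR-486, which red blood cells also carry, 0.0269% for miR-133b and 0.00759% for miR-208b. In dark-cutting against normal steers 3 of the 5 lay above 0, 2 below, and 0 passed, with a median log2 fold change of 0.05 beside -0.01 over all 252 miRNAs. miR-206, the seed partner of miR-1, had 0.16 ± 0.06 (SE; adjusted p = 0.277 in edgeR), opposite in sign to miR-1. miR-133b had 0.05 ± 0.07, miR-486 0.08 ± 0.09, miR-499 -0.11 ± 0.09 and miR-208b -0.33 ± 0.17 (SE). On the slope over degree, miR-206 stood at 0.45 per unit of degree with an adjusted p of 0.0739 in edgeR. It passed under 5 other settings, DESeq2 among them (0.47, adjusted p = 0.0294), and had 0.39 with an adjusted p of 0.365 in edgeR without the single steer of degree 3/4.

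Within groups and on the TMM scale, the members were neither the steadiest nor the most variable miRNAs. Ranks of the spread of shares were not computed. The biological coefficient of variation fitted by edgeR was 21.3% for miR-1 (72nd lowest of 252) and 24.6% for miR-133a (105th lowest), against a median of 26.5% over all miRNAs. It was 17.5% for miR-206 and 47.2% for miR-208b. The authors' deposited table, whose headers name no contrast, lists a log2 fold change of -0.12 ± 0.07 for miR-1 (standard error; adjusted p = 0.681) and -0.02 ± 0.09 for miR-133a (adjusted p = 0.993). In the authors' deposited table these rank 70 and 443 by p among 542 rows, and miR-133c is not listed.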

How the data were processed

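The labels' protocols name a NEXTflex small RNA kit. FastQC, Trimmomatic 0.32 and the authors' DESeq2 1.34.0 are listed in the submitters' processing notes. The aligner, counter, miRNA reference and build were not given in the sources used here. Positions are therefore not printed. The matrix deposited by the authors holds counts per mature miRNA and steer, which were assumed to be raw. The authors' deposited table gives a mean normalized signal, a log2 fold change with its standard error, a Wald score, and a p-value with its adjusted p-value.

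Counts were tested over all miRNAs with edgeR 4.0.16 in R 4.3.3 (quasi-likelihood, robust, TMM, Benjamini-Hochberg, threshold 0.05), with a low-count filter of 10 counts by filterByExpr for the phenotype, and 10 counts in at least 8 libraries and 15 in all for degrees and slopes. Levels are log2 CPM with TMM and a prior count of 2. Shares, ratios and correlations were tested by 100000 two-sided permutations of steers (exact where a group had under 10 steers) with scipy 1.17.1 and numpy 2.4.6. DESeq2 1.42.0, limma-voom (limma 3.58.1), other scalings, no filter, blocks of title numbers (below 600, from 600) and left-out steers were alternatives. Depth was 1427817 to 4535675 counts. Floors use 3 counts. Scripts were tested on simulated data.

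The rule for named miRNAs took the 3 members, 6 other myomiRs, the 10 most abundant rows, and the 5 highest and 3 lowest rank correlations with each member. The members and lists were chosen with earlier results of these data known. p-values weigh a difference, slope or correlation against the spread between animals.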

Additional observations from a re-analysis of the deposited data

Results flagged for a closer look

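Among 15 sets of values (5 measures of the members in the degrees 1/4, 1/3 and 2/3), 2 held a steer far from the others of its group, and chance gives about 1 in 20 such sets. Both belong to degree 2/3 replicate 3. Its miR-133a share was 1.31%, against 1.71% to 1.77% in the other 3 steers of its degree. Its log2 ratio of miR-1 to miR-133a was 6.02, or 64.8 reads of miR-1 per read of miR-133a, against 48.5 to 49 in the other 3. Both values lie inside the range of the normal steers, and the 2 are not independent, since they share the miR-133a count.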

How the results depend on the processing

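No alternative brought miR-1 or miR-133a past the threshold in any comparison with normal steers or slope. The value of miR-133a in dark-cutting against normal was 0.091 under total counts, 0.056 with library sizes free of the members and 0.021 below 600, and ran from -0.064 to 0.0099 with each steer left out; that of miR-1 ran from -0.16 to -0.11. At degree 1/2, miR-133a was -0.019 with DESeq2 size factors, -0.019 in DESeq2, -0.0092 in limma-voom and -0.0017 without a filter, and -0.29 to 0.22 without 1 steer. Under total counts and without the members in the library size, it was 0.11 and 0.067 at degree 1/3, and 0.11 and 0.036 on the slope. Under total counts miR-1 was 0.0089 at degree 2/3 and 0.0070 on the slope within dark-cutting; at degree 2/3 it ran from -0.176 to 0.050 without 1 steer. From 600, the share differences were 0.357 points for miR-1 and -0.0068 points for miR-133a, and r between the members was 0.064. Below 600, miR-206 had -0.015 in dark-cutting. miRNAs passing in dark-cutting against normal numbered 1 with library sizes free of the members, where miR-206 was the one (0.24, adjusted p = 0.0438 in edgeR), and 2 without a filter. On the slope they numbered 3 under each of DESeq2 size factors, total counts, library sizes free of the members, no filter and DESeq2, and 0 in limma-voom, against 1 as reported. At degree 2/3 they were 0 to 1 without 1 steer, 0 without replicate 1 or 4. Among lists, r of miR-1 with total count below 600 was -0.116, with white blood cells per other counts -0.153, with endothelium from 600 0.074 and per other counts -0.273 (rho -0.359, adjusted permutation p = 0.0109), with smooth muscle per other counts -0.159 and without normal replicate 19 0.285 (adjusted permutation p = 0.0575); r of miR-133a with smooth muscle per other counts was -0.348 (adjusted permutation p = 0.0137), and with red blood cells it was 0.071 from 600 and 0.102 per other counts. The relation of miR-133a with the fibroblast list passed in each block, without normal replicate 19 and per other counts. The cause of these changes was not tested. No paired analysis was possible because replicate numbers only count the steers within a group.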
